A study of Mus musculus with 6 samples.

Results

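Pericytes and vascular smooth muscle cells, together called mural cells, wrap the outside of vessels, and 10 of their genes were followed in bead-purified endothelial cells of the mouse cerebellum. The set holds 6 pericyte genes (Pdgfrb, Rgs5, Kcnj8, Abcc9, Cspg4 and Anpep) and 4 genes of contractile smooth muscle (Acta2, Tagln, Myh11 and Des). Its members are all probe sets that the platform annotation assigns to one of these symbols alone, which gave 21 probe sets, 13 for pericyte and 8 for smooth muscle genes, of 45101 on the array. The values of a gene are those of its brightest probe set by the mean of all 6 arrays, a choice made alike for all 18193 named genes.

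The 3 Fz4-null samples came from mice labelled Fz4-/-, which lack Frizzled4 (the product of Fzd4, an endothelial receptor for Norrin and Wnt ligands), and the 3 wild-type samples came from wild-type mice. All were taken on postnatal day 16 from mice of mixed sex on a mixed C57Bl6/129 background, with cells captured on magnetic beads coated with an antibody to PECAM, an endothelial surface protein. Each sample was run on 1 Affymetrix 3' array, and values are log2 expression after RMA, so a difference of 1 is a 2-fold difference. The labels do not say whether a sample was 1 animal or a pool, so p-values measure only the spread between these samples. The small number of arrays limits the precision. Which exons the Fz4-/- allele lacks was not given in the sources used here.

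Pericytes share the basement membrane of capillaries and are drawn to growing vessels by endothelial PDGF-B acting on their receptor Pdgfrb. In brain they take part in setting the permeability of the blood-brain barrier. Smooth muscle cells surround arterioles and larger vessels and set their width through a contractile apparatus of actin and myosin. Mural cells adhere to the vessel wall, and PECAM is not among their defining surface proteins. In RNA from a whole preparation, fewer mural cells and less RNA per mural cell cannot be told apart.

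Fzd4 read 3.04, 4.03 and 3.996 on Fz4-null replicates 1 to 3, against 10.80, 10.20 and 10.88 on wild-type replicates 1 to 3 (limma adjusted p = 0.00965). The 13 endothelial markers averaged 11.57 to 11.70 on the Fz4-null arrays and 11.32 to 11.44 on the wild-type arrays, and all 13 lay above background, here taken as the array medians of 5.52 to 5.58. Fz4-null replicate 1 stood apart in genes of other cell types. On it the mean over 10 microglia and macrophage genes lay at -2.87 relative to the wild-type mean on the log2 scale. The mean over 9 fibroblast and meningeal genes lay at -2.63 and that over 8 astrocyte genes at -1.98, while the endothelial mean lay at 0.33. Both arrays numbered 3 also shared a pattern, with 336 probe sets more than 1 above and 474 more than 1 below the other 4 arrays. Differences of the members and of most gene lists are therefore also given without Fz4-null replicate 1. They are not given so for every named gene. The values without both arrays numbered 3 stand at the end.

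All 10 members read above the array median on each of the 6 arrays with their chosen probe set. Rgs5 lay between 11.97 and 12.83, Anpep between 6.71 and 8.20 and Des between 6.09 and 8.68. Such a level was common, since 10916 of the 18193 named genes, members not counted, averaged above the median probe set. In the list of 13 further pericyte genes none lay below all array medians. In the list of 15 further contractile genes 1 did, Cnn1, at 3.12 to 4.85 on the Fz4-null arrays and 4.15 to 4.25 in wild type. Of the 6 measured oligodendrocyte lineage genes, which share Cspg4 expression through their precursor cells, 5 lay below the median on every array, Olig2 between 2.14 and 2.34. Fibroblast genes, which share Pdgfrb and Anpep with pericytes, were clearly present, Col1a1 reading 8.79 to 11.37 on the Fz4-null arrays and 11.15 to 11.28 on the wild-type arrays.

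**Figure D1:**
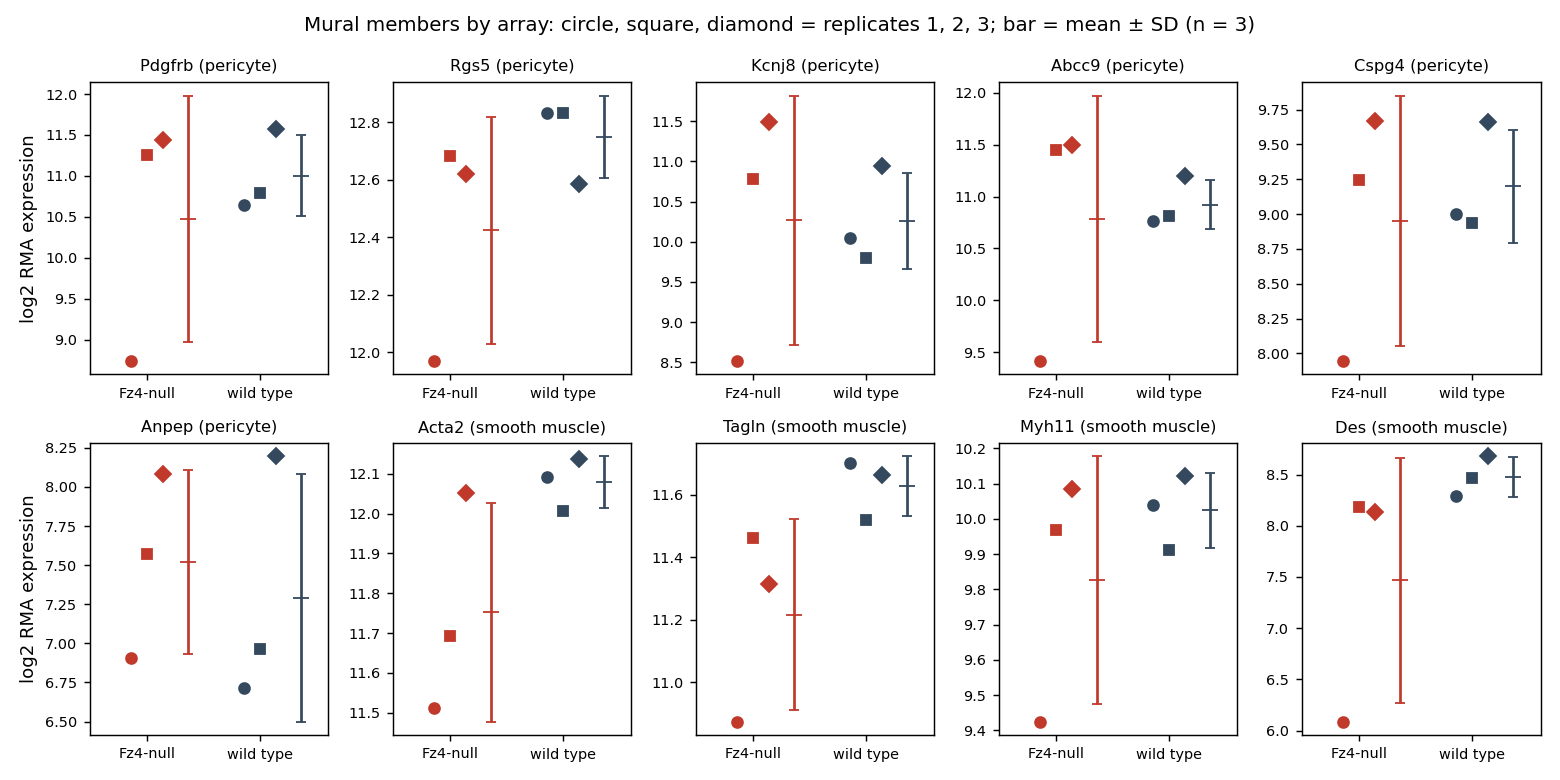
Log2 RMA expression (vertical axis, own scale in each panel) of the 10 mural members on the 3 Fz4-null arrays (red) and the 3 wild-type arrays (dark), with circles, squares and diamonds for replicates 1, 2 and 3 and a bar for mean ± SD (n = 3). Fz4-null replicate 1 is the lowest of the 6 arrays for 9 of 10 members, and only in Tagln and Des do all 3 Fz4-null arrays lie below all 3 wild-type arrays.

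None of the 10 members differed between genotypes past the limma threshold (adjusted p of 0.05 over 45037 probe sets), and each had an adjusted p of 1.00. The background was low, with 0.0111% of probe sets called, and 0 of 10 members had an unadjusted p under 0.05, against 4.6% of the 18193 genes. The median difference, Fz4-null minus wild type, was -0.19 for the 6 pericyte members and -0.37 for the 4 smooth muscle members, beside 0.01 for all genes. Without Fz4-null replicate 1 the medians were 0.44 and -0.22, beside -0.0011 for all genes, so the pericyte median turned its sign and the smooth muscle median did not.

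Promoters are printed for the members that either sit next to each other in the genome or are known targets of serum response factor (SRF), the factor that drives contractile genes through the CArG box. They are from RefSeq, GRCm38.p6, 250 bases upstream of the listed start, on the gene's strand. Windows were read for 7 members, of which 4 are printed. The windows of Pdgfrb, Tagln and Myh11 were not read here. Capitals mark stretches of 10 bases that match the CArG box (CC, then 6 letters that are A or T, then GG, which reads the same on both strands) with at most 1 letter different.
Acta2, chr19:34255374-34255623, minus strand: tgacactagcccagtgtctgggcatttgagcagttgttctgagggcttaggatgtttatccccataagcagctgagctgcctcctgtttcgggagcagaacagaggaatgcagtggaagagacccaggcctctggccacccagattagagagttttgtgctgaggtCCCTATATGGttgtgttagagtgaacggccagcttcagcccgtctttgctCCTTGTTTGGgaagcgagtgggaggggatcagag
Des, chr1:75360042-75360291, plus strand: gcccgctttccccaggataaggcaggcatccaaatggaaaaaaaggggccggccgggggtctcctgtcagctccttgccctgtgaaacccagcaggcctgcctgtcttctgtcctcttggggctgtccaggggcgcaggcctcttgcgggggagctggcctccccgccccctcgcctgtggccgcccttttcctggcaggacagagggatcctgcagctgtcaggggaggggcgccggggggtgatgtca
Kcnj8, chr6:142571615-142571864, minus strand: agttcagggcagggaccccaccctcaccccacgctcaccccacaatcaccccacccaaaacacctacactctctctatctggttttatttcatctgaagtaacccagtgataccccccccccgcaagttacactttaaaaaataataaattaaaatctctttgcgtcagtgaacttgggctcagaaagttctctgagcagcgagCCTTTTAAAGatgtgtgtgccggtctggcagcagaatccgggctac
Abcc9, chr6:142702275-142702524, minus strand: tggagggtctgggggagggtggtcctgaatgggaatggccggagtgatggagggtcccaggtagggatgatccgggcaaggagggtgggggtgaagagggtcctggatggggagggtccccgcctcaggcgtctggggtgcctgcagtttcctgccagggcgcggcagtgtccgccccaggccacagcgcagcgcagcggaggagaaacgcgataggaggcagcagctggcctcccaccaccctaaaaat
No window of the 7 members held an exact CArG box, which 1.47% of 32851 promoter windows of this length hold. Among the smooth muscle members this covers Acta2 and Des only, since Tagln and Myh11 had no window read. With 1 letter allowed to differ, the Acta2 window held 2, the Cspg4 window 2 that overlap each other and the Kcnj8 window 1, and 18.6% of all windows held at least 1. The Des, Abcc9, Rgs5 and Anpep windows held none. The letters TGGGAA, the core bound by the Notch effector RBPJ, were found on either strand in the Acta2 and Abcc9 windows, and in 21.6% of all windows. A match or its absence only describes these letters, and binding was not tested.

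Pdgfrb, the PDGF-B receptor on which pericytes depend for recruitment, read 8.74, 11.25 and 11.43 on Fz4-null replicates 1 to 3, against 10.64, 10.80 and 11.57 on wild-type replicates 1 to 3. The Fz4-null arrays thus held both the lowest reading and 2 of the 3 highest, and the groups overlapped. The difference was -0.53 (SE 0.72, 95% interval -2.23 to 1.18) with all arrays and 0.34 without Fz4-null replicate 1. Its dimmer probe set gave the same order on the Fz4-null arrays, at 8.82, 10.80 and 11.14, against 10.50, 10.53 and 10.97 in wild type.

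Rgs5, a regulator of G protein signalling and a widely used pericyte marker, had the brightest reading of its 4 probe sets at 11.97, 12.68 and 12.62 on the Fz4-null arrays, against 12.83, 12.83 and 12.59 on the wild-type arrays. Wild-type replicate 3 lay below Fz4-null replicates 2 and 3, so the groups overlapped. The difference was -0.33 (SE 0.24, 95% interval -0.90 to 0.25), and -0.10 without Fz4-null replicate 1. The 4 Rgs5 probe sets did not point one way. Differences were -0.33, -0.32 and -0.67 on the 3 brighter ones and 0.43 on the dimmest, which can cross-hybridise by its name and read 8.38, 10.63 and 10.25 in the Fz4-null group and 9.75, 9.76 and 8.48 in wild type. Fz4-null replicate 1 was the lowest array on all 4. Rgs4, the neighbouring gene and a relative in the same family, read 8.86, 10.42 and 10.38 on the Fz4-null arrays, against 10.57, 10.40 and 10.26 in wild type. It was named for that relation, outside the rule for named genes. Of 14 listed relatives of the members, 7 had their lowest reading on Fz4-null replicate 1.

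Kcnj8 and Abcc9 encode the pore (Kir6.1) and the sulfonylurea receptor (SUR2) of the vascular ATP-sensitive potassium channel, and they lie next to each other on chromosome 6 with 0 protein-coding genes between them (promoters above). Kcnj8 read 8.52, 10.79 and 11.49 on the Fz4-null arrays, against 10.04, 9.80 and 10.94 on the wild-type arrays. Abcc9 read 9.42, 11.45 and 11.49 on the Fz4-null arrays, against 10.76, 10.81 and 11.20 in wild type. In both genes Fz4-null replicate 3 was the highest array and Fz4-null replicate 1 the lowest, and the groups overlapped.

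With all 6 arrays the channel genes had small differences and wide intervals. Kcnj8 differed by 0.0033 (SE 0.75, 95% interval -1.79 to 1.80) and Abcc9 by -0.14 (SE 0.56, 95% interval -1.46 to 1.19). Without Fz4-null replicate 1 the differences were 0.88 for Kcnj8 and 0.55 for Abcc9, the highest of the 10 members in the case of Kcnj8, each with limma adjusted p = 1.00 and unadjusted p of 0.081 and 0.053. In Abcc9, Fz4-null replicates 2 and 3 both lay above every wild-type array, which held for 1 of 10 members and for 7.82% of all genes. The Abcc9 probe sets did not all share this, since on the dimmest Fz4-null replicates 2 and 3 read 10.45 and 9.76, against 9.26, 10.04 and 10.14 in wild type.

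The subunits of the related channel, which serve the pancreatic beta cell and neurons, were dim. Kcnj11 read 5.52 to 5.61 on the Fz4-null arrays and 5.52 to 6.01 on the wild-type arrays, close to the array medians, and Abcc8 read 3.68 to 3.84 on the Fz4-null arrays and 3.84 to 4.14 on the wild-type arrays, below them. Both were named for their relation to the members after their values were seen.

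Cspg4, the NG2 proteoglycan of the pericyte surface, read 7.95, 9.25 and 9.67 on the Fz4-null arrays, against 9.001, 8.93 and 9.66 in wild type. Replicates 3 of the genotypes were alike and replicate 1 of the Fz4-null group was lowest. The difference was -0.25 (SE 0.46, 95% interval -1.34 to 0.85), and 0.26 without Fz4-null replicate 1.

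Anpep, the cell surface aminopeptidase N or CD13, was the member that did not have its lowest reading on Fz4-null replicate 1. It read 6.91, 7.57 and 8.08 on the Fz4-null arrays, against 6.71, 6.97 and 8.20 in wild type. Both arrays numbered 3 were the highest of their group. The difference was 0.23 (SE 0.46, 95% interval -0.87 to 1.33), and 0.53 without Fz4-null replicate 1.

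The smooth muscle members were the ones in which every difference was negative with all 6 arrays. Acta2, smooth muscle alpha-actin, read 11.51, 11.69 and 12.05 on the Fz4-null arrays, against 12.09, 12.01 and 12.14 on the wild-type arrays. Fz4-null replicate 3 lay between wild-type replicates 2 and 1, and the other Fz4-null arrays lay below all wild-type arrays. The difference was -0.33 (SE 0.20, 95% interval -0.80 to 0.15), and -0.21 without Fz4-null replicate 1. The Acta2 value comes from a probe set that by its name can read related transcripts, and Acta2's other 2 probe sets were not above the median on every array and differed by -0.06 and 0.03.

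Tagln, transgelin or SM22-alpha, an actin-binding protein of smooth muscle, read 10.87, 11.46 and 11.32 on the Fz4-null arrays, against 11.70, 11.52 and 11.66 on the wild-type arrays. All 3 Fz4-null arrays lay below all 3 wild-type arrays, by as little as 0.06 between replicates numbered 2. The difference was -0.41 (SE 0.21, 95% interval -0.91 to 0.09, unadjusted p = 0.092, limma adjusted p = 1.00), and -0.24 without Fz4-null replicate 1.

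Des, desmin, the intermediate filament of muscle and of many pericytes, read 6.09, 8.18 and 8.14 on the Fz4-null arrays, against 8.29, 8.47 and 8.68 on the wild-type arrays. Here too the groups did not overlap, and Fz4-null replicate 1 lay at -2.07 relative to the mean of the other Fz4-null arrays on the log2 scale. The difference was -1.01 (SE 0.56, 95% interval -2.33 to 0.32, unadjusted p = 0.12, limma adjusted p = 1.00), and -0.32 without Fz4-null replicate 1. Such a non-overlap on the low side was seen in 2 of 10 members and in 4.95% of the 18193 genes, and on the high side in 0 of 10 members and 4.59% of genes. Leaving out Fz4-null replicate 1 cannot undo such a non-overlap, so Tagln and Des kept it by construction. No further member gained it, and 9.85% of genes had Fz4-null replicates 2 and 3 below every wild-type array. The dimmer Des probe set, below the median on every array, overlapped between the groups. It read 2.82, 2.93 and 4.15 on the Fz4-null arrays, against 3.66, 3.35 and 3.44 in wild type.

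Myh11, smooth muscle myosin heavy chain, read 9.42, 9.97 and 10.08 on the Fz4-null arrays, against 10.04, 9.91 and 10.12 in wild type. Apart from Fz4-null replicate 1, the arrays of the genotypes lay within one range. The difference was -0.20 (SE 0.22, 95% interval -0.73 to 0.34), and 0.0018 without Fz4-null replicate 1. Its dimmer probe set read 4.76, 5.08 and 5.47 on the Fz4-null arrays, against 5.35, 5.62 and 5.88 in wild type, not above the array medians throughout, with a difference of -0.52 (limma adjusted p = 1.00).

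**Figure D2:**
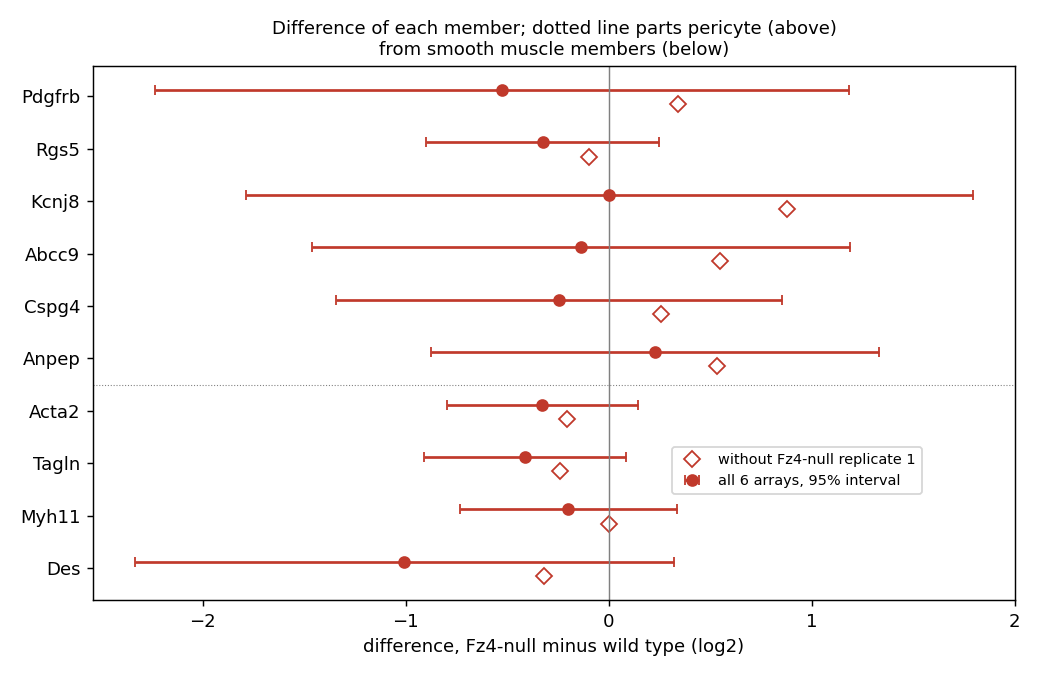
Difference of each member, Fz4-null minus wild type (log2, horizontal axis), with all 6 arrays (filled, with the 95% limma interval) and without Fz4-null replicate 1 (open). Every interval spans 0, and without that array 5 of 6 pericyte members lie above 0, 3 of which (Pdgfrb, Abcc9 and Cspg4) lie below it with all arrays, while Acta2, Tagln and Des lie below it both ways.

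The arrays can also be read by replicate number. Between replicates numbered 1, 5 of 6 pericyte members and 4 of 4 smooth muscle members were lower in the Fz4-null array, with Pdgfrb at -1.90 and Des at -2.20. Between replicates numbered 2, 5 of 6 pericyte members were higher in the Fz4-null array, up to 0.98 for Kcnj8, and 3 of 4 smooth muscle members were lower. Between replicates numbered 3, 4 of 6 pericyte members were higher, up to 0.55 for Kcnj8, and 4 of 4 smooth muscle members were lower, down to -0.54 for Des. The labels do not say that a shared number marks a shared day or litter. With the replicate number as a block, 0 of 10 members passed and Des had the lowest limma adjusted p, 0.589.

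The member groups parted on Fz4-null replicates 2 and 3, and to a lesser degree in the same direction on wild-type replicate 3. Set against the wild-type mean on the log2 scale, the 6 pericyte members averaged -1.32, 0.26 and 0.56 on Fz4-null replicates 1 to 3, against -0.24, -0.21 and 0.45 on wild-type replicates 1 to 3. The 4 smooth muscle members averaged -1.08, -0.23 and -0.16 on the Fz4-null arrays, against -0.02, -0.08 and 0.10 on the wild-type arrays. The pericyte mean minus the smooth muscle mean was -0.25, 0.49 and 0.72 on the Fz4-null arrays, against -0.22, -0.14 and 0.36 on the wild-type arrays. These overlap, and with 3 arrays against 3 an exact two-sided permutation test cannot give a p below 0.1.

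**Figure D3:**
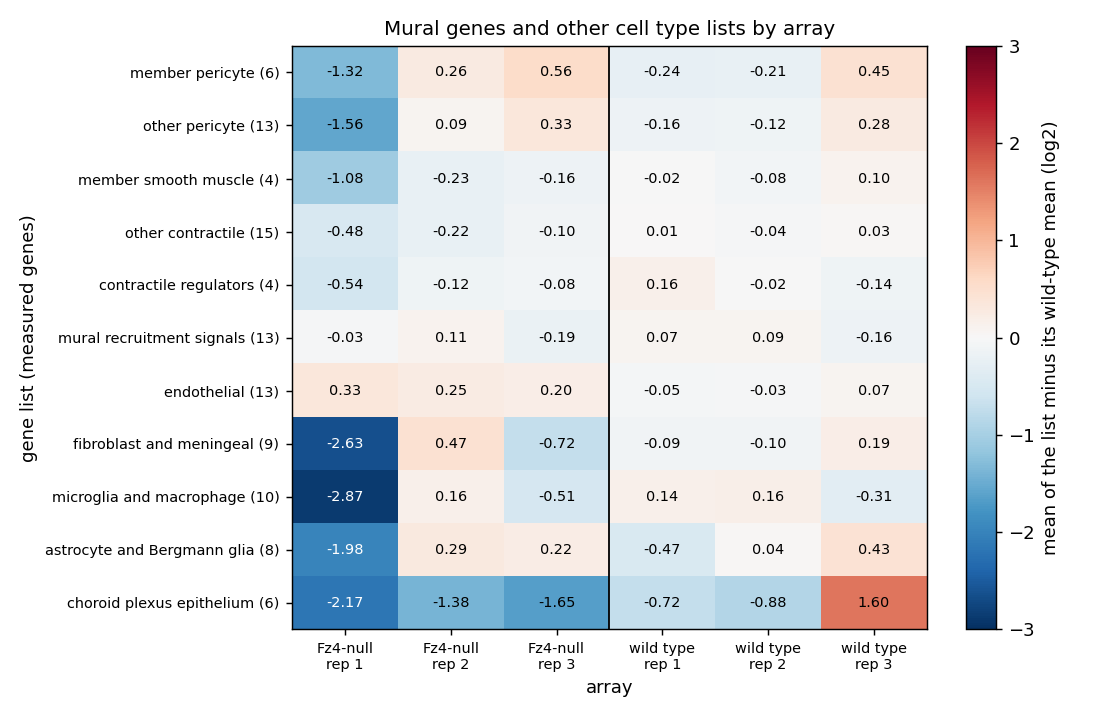
Mean of each gene list on each array minus its wild-type mean (log2, colour and number), with Fz4-null arrays left of the line and wild-type arrays right of it, and the number of measured genes in brackets. The pericyte rows are at -1.32 and -1.56 on Fz4-null replicate 1. They are above 0 on the other Fz4-null arrays and on wild-type replicate 3. The smooth muscle, other contractile and choroid plexus rows lie below every wild-type array on all 3 Fz4-null arrays. The endothelial row lies above every wild-type array on all 3.

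Further mural genes were read from lists that were, like the members, chosen with earlier results of these data known. Of 13 further pericyte genes 0 passed in either direction, 12 lay lower and 1 higher, with a median difference of -0.38, and 12 had their lowest reading on Fz4-null replicate 1. Without that array 9 of 13 lay higher, with a median of 0.32. Tbx18, a transcription factor of mural cells, read 6.21, 8.55 and 7.73 on the Fz4-null arrays, against 8.81, 8.65 and 8.12 in wild type (difference -1.03, limma adjusted p = 1.00), and the difference was -0.38 without Fz4-null replicate 1.

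Notch3, the Notch receptor of mural cells, read 10.72, 12.08 and 11.80 on the Fz4-null arrays, against 12.30, 12.26 and 11.83 in wild type. All Fz4-null arrays but replicate 2 lay below the lowest wild-type array, and replicate 2 lay below the other 2 wild-type arrays. The Notch3 difference was -0.59, or -0.18 without Fz4-null replicate 1. Mcam, an adhesion molecule of mural cells that endothelium also makes, was the 1 gene of the list that lay higher, at 11.62, 11.45 and 11.94 on the Fz4-null arrays and 11.21, 11.11 and 11.62 on the wild-type arrays. On Fz4-null replicate 1 it did not share the low reading of the other 12 genes.

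Of 15 further contractile genes 0 passed in either direction, 12 lay lower and 3 higher, and the median difference was -0.17, or -0.11 without Fz4-null replicate 1. Actg2, the gamma-actin of visceral smooth muscle, read 5.40, 4.75 and 6.08 on the Fz4-null arrays, against 6.40, 6.13 and 7.05 in wild type. No Fz4-null array reached the lowest wild-type array, which held for 4.95% of all genes. The difference was -1.12 (SE 0.39, unadjusted p = 0.026, limma adjusted p = 1.00) and -1.11 without Fz4-null replicate 1, at levels near the array medians.

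Kcnmb1, the beta subunit of the calcium-activated potassium channel of smooth muscle, read 4.84, 5.92 and 4.25 on the Fz4-null arrays, against 6.01, 6.88 and 5.18 in wild type. Each Fz4-null array lay below the wild-type array of the same number, but the groups overlapped. Kcnmb1 readings lay on both sides of the array medians, here taken as background. Tpm2, a tropomyosin, read 9.64, 9.88 and 10.44 on the Fz4-null arrays, against 10.38, 10.18 and 10.63 in wild type, with a difference of -0.41 (limma adjusted p = 1.00), or -0.24 without Fz4-null replicate 1.

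The regulators of the contractile programme were measured by 4 genes, of which 0 passed, 3 lay lower and 1 higher, with a median difference of -0.31, or -0.16 without Fz4-null replicate 1. Mrtfb, a coactivator of SRF, was the 1 that lay higher, at 12.15, 12.19 and 12.20 on the Fz4-null arrays and 11.94, 11.91 and 11.84 on the wild-type arrays. Those groups did not overlap, which held for 4.59% of all genes on the high side. The Mrtfb difference was 0.28 (SE 0.16, limma adjusted p = 1.00), or 0.30 without Fz4-null replicate 1. Myocd, the smooth muscle coactivator of SRF, named after its values were seen, read 8.68, 9.59 and 9.45 on the Fz4-null arrays, against 10.41, 10.02 and 9.25 in wild type. The Myocd difference was -0.65, or -0.37 without Fz4-null replicate 1.

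Signals between endothelium and mural cells were read from 13 genes, of which 0 passed, 8 lay lower and 5 higher, with a median difference of -0.07, or -0.09 without Fz4-null replicate 1. Angpt1, the Tie2 ligand that mural cells make, read 5.52, 7.35 and 6.54 on the Fz4-null arrays, against 7.38, 7.24 and 7.43 in wild type (difference -0.88, limma adjusted p = 1.00), and the difference was -0.41 without Fz4-null replicate 1. S1pr1, the endothelial sphingosine-1-phosphate receptor, read 10.15, 9.90 and 10.09 on the Fz4-null arrays, against 9.80, 9.82 and 9.77 in wild type. Its groups did not overlap, which held for 4.59% of all genes on the high side. Angpt1 lay below all wild-type arrays on Fz4-null replicates 1 and 3, whereas the pericyte members averaged below the wild-type mean on replicate 1 and above it on replicate 3.

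Tgfb2, a TGF-beta ligand, read 11.17, 11.36 and 10.75 on the Fz4-null arrays, against 11.57, 11.54 and 11.19 in wild type, a difference of -0.34 (limma adjusted p = 1.00), or -0.38 without Fz4-null replicate 1. Pdgfb, the endothelial ligand of Pdgfrb, is named here for that role after its values were seen. It read 9.60, 8.92 and 10.25 on the Fz4-null arrays, against 8.83, 8.71 and 10.04 in wild type, with a difference of 0.39 (limma adjusted p = 1.00) with and without Fz4-null replicate 1. Each Fz4-null array lay above the wild-type array of the same number, and the groups overlapped.

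The genes whose course over the 6 arrays was nearest to a member group were ranked by the root mean square difference between centred log2 profiles, over 10916 genes brighter than the median probe set. For the pericyte profile these were Arhgef6 (0.116), Ano4 (0.125), Heyl (0.133), Itgb5 (0.143) and Cdh4 (0.150), while the 6 members themselves lay 0.095 to 0.485 from their own mean. Heyl, a Notch effector on the list of further pericyte genes, read 6.27, 8.05 and 8.48 on the Fz4-null arrays, against 7.42, 7.75 and 8.28 in wild type. For the smooth muscle profile they were Myl9 (0.047), Atf5 (0.082), Phlda1 (0.091), Irak1bp1 (0.092) and Nkd2 (0.106), and the 4 members lay 0.152 to 0.482 from their mean. Myl9, a regulatory myosin light chain on the contractile list, read 10.95, 11.88 and 11.86 on the Fz4-null arrays, against 11.93, 11.90 and 12.11 in wild type. Every profile rests on the same 6 arrays, so the ranks describe these samples only.

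Fibroblast, microglia and astrocyte genes, like the members, had their lowest mean on Fz4-null replicate 1. The other Fz4-null arrays differed. Relative to the wild-type mean, these lists lay at -0.72, -0.51 and 0.22 on Fz4-null replicate 3. The pericyte members lay at 0.56 there and the smooth muscle members at -0.16. On Fz4-null replicate 2 the lists lay at 0.47, 0.16 and 0.29, the pericyte members at 0.26 and the smooth muscle members at -0.23. All 9 fibroblast genes lay lower (median -0.99, or -0.14 without Fz4-null replicate 1), and their mean level was 6.88, 9.98 and 8.79 on the Fz4-null arrays, against 9.41, 9.41 and 9.70 in wild type. All 10 microglia and macrophage genes lay lower (median -1.11, or -0.02 without that array), with mean levels of 5.04, 8.07 and 7.39 on the Fz4-null arrays, against 8.05, 8.07 and 7.60 in wild type. Of 8 astrocyte and Bergmann glia genes 7 lay lower (median -0.65, or 0.23 without that array, when 5 of 8 lay higher), with mean levels of 6.97, 9.24 and 9.17 on the Fz4-null arrays, against 8.48, 8.98 and 9.38 in wild type. No gene of these lists passed, the lowest p values belonging to Fmod (-1.74), Mrc1 (-2.07) and Hopx (-0.78), each with limma adjusted p = 1.00. Without Fz4-null replicate 1 these differences were -1.27 for Fmod, -1.17 for Mrc1 and -0.44 for Hopx.

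Choroid plexus genes took another course, with all 6 lower, a median of -1.70, or -1.55 without Fz4-null replicate 1, and mean levels of 5.06, 5.85 and 5.58 on the Fz4-null arrays, against 6.51, 6.35 and 8.84 in wild type. Their lowest p belonged to Ttr (-2.48, limma adjusted p = 0.580). Among endothelial genes 10 of 13 lay higher (median 0.26, or 0.28 without Fz4-null replicate 1), with the lowest p for Clec14a (1.00, limma adjusted p = 0.811). The lowest p belonged to Sox10 (-0.50) among oligodendrocyte lineage genes and to Rbfox3 (0.82) among cerebellar neuron genes, each with limma adjusted p = 1.00. The part of these other cells in the mural values was not tested.

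On Fz4-null replicate 1 the members did not sit equally low. Against the mean of Fz4-null replicates 2 and 3, that array read lower by -2.62 in Kcnj8, -2.60 in Pdgfrb, -2.07 in Des, -2.06 in Abcc9 and -1.51 in Cspg4. In Anpep (-0.92), Rgs5 (-0.68), Myh11 (-0.60), Tagln (-0.51) and Acta2 (-0.36) the gap was smaller. That array was the lowest for 9 of 10 members and for 16.1% of all genes, and it lay at least 1 below every other array for 4 of 10 members and for 2.31% of all genes. The step thus varied within both member groups.

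**Figure D4:**
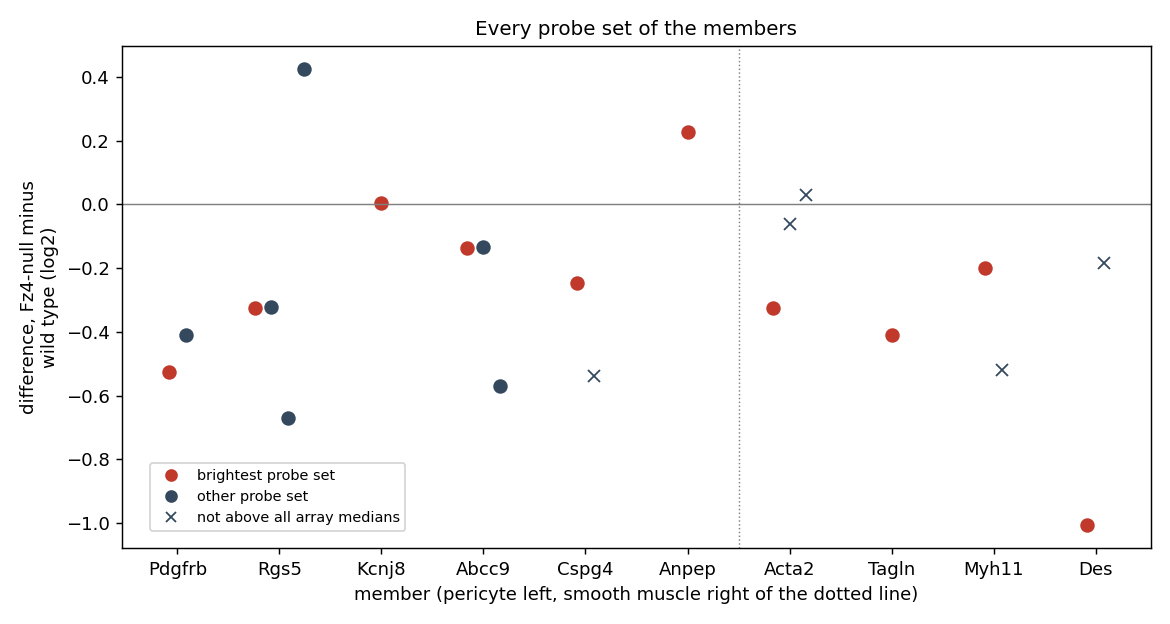
Difference, Fz4-null minus wild type (log2, vertical axis), of all 21 probe sets of the members, with the probe set chosen per gene in red, the others in dark, and crosses for probe sets that are not above the median on every array. Probe sets of one gene differ by up to the spread seen in Rgs5, from -0.67 to 0.43.

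Over all 21 probe sets, 16 lay above the median on every array, of which 13 had a negative difference and 15 had their lowest reading on Fz4-null replicate 1. The other 5 belong to Cspg4, Acta2, Myh11 and Des, and all but that of Cspg4 were near or below the medians. The Cspg4 probe set lay below the median only on Fz4-null replicate 1 (4.92) and read 6.10 to 6.98 on the other arrays. Of these 5 probe sets 4 had a negative difference, and 3 had their lowest reading on Fz4-null replicate 1. Where a gene had several probe sets, those of Pdgfrb, Abcc9, Cspg4, Myh11 and Des shared a direction, and those of Rgs5 and Acta2 did not.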

How the data were processed

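Each of the 6 arrays measured total RNA of anti-PECAM bead-purified cerebellar cells, extracted with Trizol and RNeasy, per the labels' protocols. The authors deposited log2 values that, per the submitters' processing notes, came from RMA. RMA corrects background, aligns the arrays' distributions and summarises probe sets, and it compresses differences of dim probe sets. The implementation was not given in the sources used here. Depth does not apply to arrays.

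After 64 control probe sets were left out, 45037 were tested with limma 3.58.1 in R 4.3.3 (lmFit, eBayes, 2 groups, two-sided, Benjamini-Hochberg over all probe sets, threshold 0.05), which was also tested on simulated data. Symbols came from the platform annotation, with 34945 probe sets carrying 1 symbol, 932 several and 9160 none, and 34741 matched RefSeq GRCm38.p6 by gene ID. Values are mean ± SD or log2 differences with moderated SE. No pair of arrays shared more than 0.351% identical values.

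The members and lists were chosen with earlier results of these data known. Named genes were the members, Fzd4, the 3 lowest p in the further pericyte, contractile and signalling lists, the lowest p in every other list (or up to 3 past the threshold), and the 5 nearest profiles per member group. Listed genes with no value in the table under their symbol alone were not analysed here.

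Same-numbered arrays deviated together from their group means, with correlations across probe sets of 0.244, 0.303 and 0.574, all over 0.1. Unlike numbers also correlated, up to 0.262 for Fz4-null replicate 2 with wild-type replicate 1, above the 0.244 of the arrays numbered 1. A hint of pairing was thus clear only for the arrays numbered 3, and the labels state no pairing. The alternatives were other normalizations, filters, variance models and probe set rules, the replicate block, and arrays left out.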

Additional observations from a re-analysis of the deposited data

How the results depend on the processing

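In each of the 17 alternatives, 0 of 10 members passed the threshold, the lowest limma adjusted p being 0.589 for Des with the replicate block. The smallest unadjusted p stayed above 0.05 except for Tagln with a variance trend and robust estimation (0.046). Rgs5, Acta2, Tagln and Des lay lower in all 17, with ranges of -0.51 to -0.10, -0.48 to -0.06, -0.53 to -0.24 and -1.37 to -0.32. This does not hold for each probe set of Rgs5. Without Fz4-null replicate 1 its dimmer probe sets differed by 0.05, -0.20 and 1.11. The Acta2 value nearest 0 came without the _s_, _x_ and _a_ probe sets, whose names mark a possible match to more than 1 transcript, and Anpep then had none. The replicate block changed no member's call.

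Leaving out 1 array gave Pdgfrb differences of -1.01 to 0.34, Kcnj8 of -0.61 to 0.88, Abcc9 of -0.49 to 0.55, Cspg4 of -0.60 to 0.26, Anpep of -0.061 to 0.68 and Myh11 of -0.33 to 0.0018, so the sign of these 6 rests on single arrays. Their highest values came without Fz4-null replicate 1, except that of Anpep, which came without wild-type replicate 3. The medians ranged from -0.48 to 0.13 for all members, -0.55 to 0.44 for pericyte and -0.47 to -0.22 for smooth muscle members. Kcnj8, at 0.0033 with all arrays, read -0.038 with cyclic loess, -0.032 with quantile normalization and -0.27 without both arrays numbered 3, an alternative chosen after seeing the data that gave medians of -0.36 for pericyte and -0.44 for smooth muscle members.

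The number of probe sets past the threshold, 5 with all arrays, was 21 with array weights, 11 genes with probe sets averaged per gene, and 0 with the replicate block (3917 at an unadjusted limma p under 0.05), with an unmoderated statistic (2126) and without both arrays numbered 3 (3580). Leaving out 1 array left 0 to 2 (1329 to 3510 at an unadjusted p under 0.05). The cause was not tested. No outlier check applies to groups of 3.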
